A study of Rattus norvegicus with 12 samples.

Results

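Retinoid metabolism and receptor genes make, carry, break down and read the signal of vitamin A. The 9 genes described here are Stra6, Crabp1, Crabp2, Dhrs3, Aldh1a1, Aldh1a2, Cyp26b1, Rara and Rarb. They were found by symbol among the 27342 probe sets of the gene array that its annotation puts in the main category, where a probe set is the group of short probes that gives 1 signal. Probe sets with a member as their only symbol numbered 10 and covered 8 of the 9 genes. Aldh1a1 was left without a probe set of its own, since its probe set also carries the symbol of the near-identical gene Aldh1a7.

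The RNA came from Sertoli cells, the somatic cells that nurse germ cells in the seminiferous tubule, isolated from testes of 9-day-old rats. After 24 h of primary culture in medium with fetal bovine serum, the cells were kept for 24 h with 0.1 mM of a compound labelled MBP, or without it as control. The labels name neither the compound in full nor the strain, and do not say whether samples are separate animals, isolations or dishes. P-values therefore speak of the spread among these particular samples, and that spread may be technical. There were 3 MBP and 3 control samples on gene arrays, numbered 1 to 3 in both groups, and the 6 microRNA arrays of the series were not used here.

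Retinol circulates in blood and enters cells partly through the membrane receptor STRA6. Inside the cell, retinol and retinal are interconverted by dehydrogenases and reductases, and retinal is oxidised irreversibly to retinoic acid by the ALDH1A enzymes. Retinoic acid binds nuclear receptors of the RAR family, which act with RXR partners on response elements in DNA, and CYP26 enzymes clear it. In the testis retinoic acid starts the differentiation and meiosis of germ cells, and Sertoli cells are a known site of its synthesis and signalling. RARB is a classic target of its own ligand, and a response element near its start site was among the earliest described.

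That element lies in the rat sequence near the RefSeq start of Rarb, and it is printed because Rarb had the smallest unadjusted p among the members in the comparison of MBP with control. It is a DR5, a direct repeat of AGGTCA or AGTTCA or GGGTCA or GGTTCA, in any combination, with 5 bases between the copies. It was found at chr15:11336412-11336436 on the plus strand (RefSeq, GRCr8), where the element itself covers bases 25 to 41 after the annotated start. Capitals mark the repeat units.
Rarb: gaagGGTTCAccgaaAGTTCActcg

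Over windows of 300 bases (250 before and 50 after the start) on both strands, a DR5 was present in 0.382% of 33469 rat promoters and in 1 of the 9 members. Repeats spaced by 2 bases (DR2) and by 1 base (DR1) were present in 0.17% and 0.233% of these promoters and in 0 of the 9 members. A match describes the letters and is not evidence of binding in these cells.

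The 250 bases before the RefSeq start are printed for Crabp2, Cyp26b1 and Dhrs3, the members whose signal differed between sample numbers. They lie on GRCr8 at chr2:175714612-175714861 on the plus strand, chr4:118616177-118616426 on the minus strand and chr5:162031603-162031852 on the plus strand. Capitals mark TATAAA, the TATA box core, and GGGCGG on either strand, a GC box, and none of these matches overlaps another.
Crabp2: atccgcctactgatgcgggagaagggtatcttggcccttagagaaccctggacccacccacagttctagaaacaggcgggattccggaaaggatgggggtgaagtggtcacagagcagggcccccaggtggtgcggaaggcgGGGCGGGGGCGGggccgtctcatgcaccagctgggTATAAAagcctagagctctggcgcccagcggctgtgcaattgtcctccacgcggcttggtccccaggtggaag
Cyp26b1: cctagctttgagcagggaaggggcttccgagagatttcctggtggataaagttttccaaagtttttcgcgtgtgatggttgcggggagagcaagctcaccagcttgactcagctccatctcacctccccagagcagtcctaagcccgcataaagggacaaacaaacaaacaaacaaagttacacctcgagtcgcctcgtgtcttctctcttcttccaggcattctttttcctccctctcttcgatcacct
Dhrs3: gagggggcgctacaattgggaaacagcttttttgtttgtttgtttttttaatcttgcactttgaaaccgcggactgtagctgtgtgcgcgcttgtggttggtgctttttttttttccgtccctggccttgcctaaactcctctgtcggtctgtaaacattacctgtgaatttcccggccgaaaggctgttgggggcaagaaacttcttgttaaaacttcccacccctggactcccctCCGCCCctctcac

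Crabp2 alone among the 9 members held TATAAA in this window, 73 bases before the start, against 12.9% of all promoters. GGGCGG was present in 4 of the 9 members, among them Crabp2 with 2 matches and Dhrs3 with 1, against 30.5% of all promoters. In the Cyp26b1 window neither was found.

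Most members gave little signal. Background was set on each array as the 95th percentile of its 1153 intron control probe sets, which gave log2 signals of 5.81, 5.85 and 6.18 on the MBP arrays and 5.88, 5.67 and 6.20 on the control arrays. Rara and Dhrs3 lay above it on all 6 arrays, and the other 8 probe sets lay below it on all 6. Of all main probe sets, 6341 were above background on every array and 18938 below it on every array. For the 8 dim probe sets, a lack of response in the transcript is therefore not shown, and differences are given as log2 signal without a fold.

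The label of the cells was checked against marker genes. The Sertoli list had 13 measured genes, of which the transcription factors Wt1 and Gata4 and the secreted chaperone gene Clu exceeded background throughout and Sox9 did so on 5 arrays. The probe set listed under Fshr, the FSH receptor, did too, but the annotation also matches it to GAPDH mRNA, and which transcript it reads is not settled here. Amh, Dhh, Cldn11, Inha, Inhbb, Kitlg and Gdnf, 7 of the 13, were below background on all 6, and Nr5a1 was above it on 2 arrays. Of 12 genes that mark peritubular myoid cells and fibroblasts, 11 exceeded it on every array. In the other lists this held for 1 of 5 Leydig cell markers (Star), 1 of 6 germ cell markers (Uchl1), 0 of 6 macrophage and leukocyte markers and 0 of 3 endothelial markers.

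**Figure D1:**
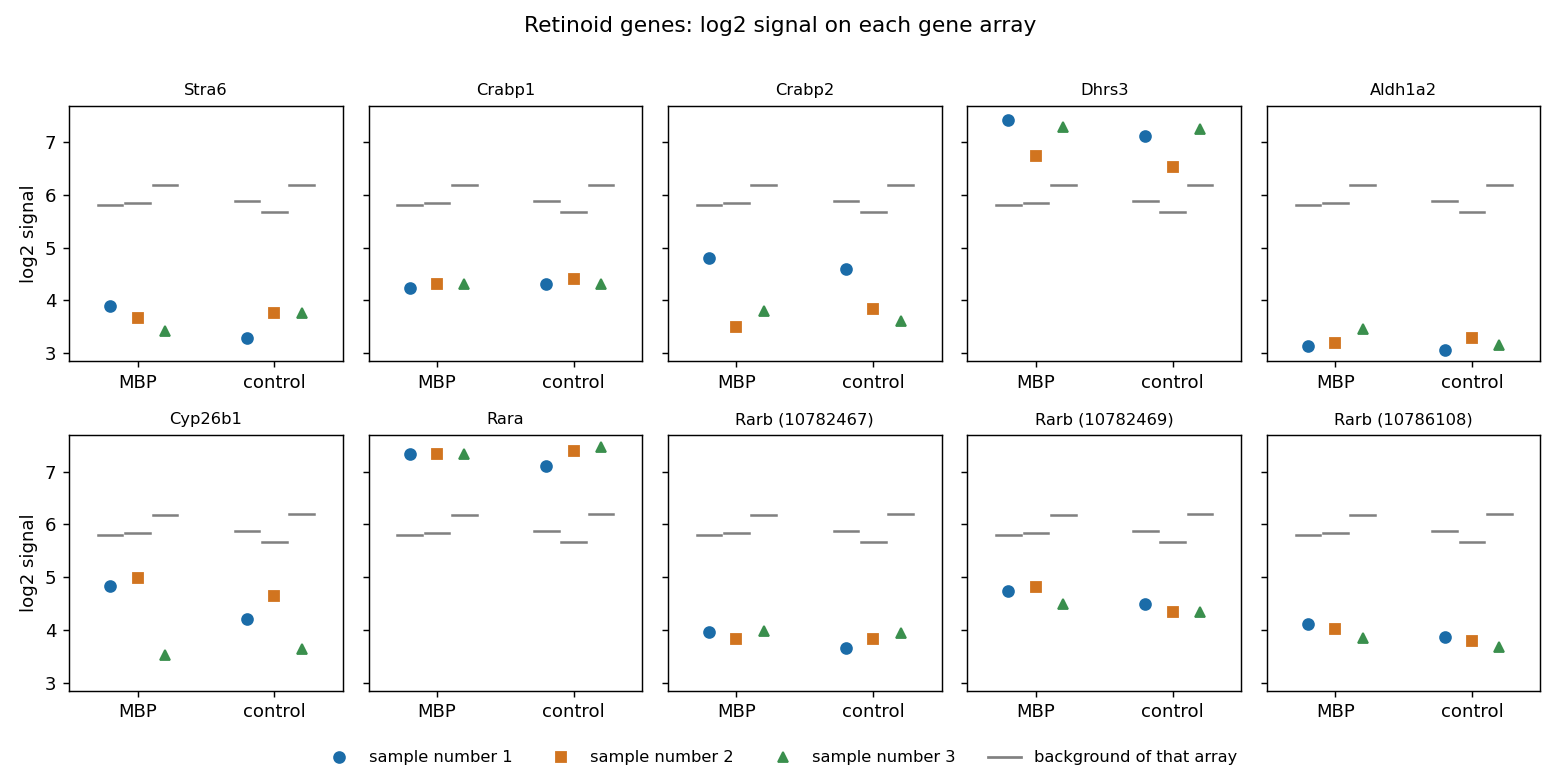
Log2 signal (vertical axis) of each of the 10 retinoid probe sets on the 3 MBP arrays (left in each panel) and the 3 control arrays (right), with symbols for the sample number and a grey line for the background of that array. Rara and Dhrs3 lie above the lines on all 6 arrays and the other 8 probe sets below them, and in both groups Crabp2 is highest in number 1, Dhrs3 lowest in number 2 and Cyp26b1 lowest in number 3.

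No retinoid probe set differed between MBP and control cultures by the test. The comparison asks which genes differ after 24 h of MBP, and it was fitted with limma on all main probe sets, with p-values adjusted over all of them (Benjamini-Hochberg). Probe sets with an adjusted p under 0.05 numbered 0 of 10 among the members and 0 of 27342 in all (0%), where 351 had an unadjusted p under 0.05, and every member had an limma adjusted p of 1. Groups that do not overlap were found for 0 of the 10 members, against 1.91% of all main probe sets higher and 1.52% lower with MBP.

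The members for uptake and binding, Stra6, Crabp1 and Crabp2, gave signals below background. Stra6, the membrane receptor for the retinol carrier protein in blood (chromosome 8, 62701447 to 62720527, Rnor_5.0), had log2 signals of 3.89, 3.66 and 3.43 in MBP samples 1, 2 and 3, against 3.29, 3.76 and 3.76 in control samples. The groups overlapped, with a difference of 0.06 (95% interval -0.37 to 0.49). The MBP sample was higher for number 1 and the control sample for numbers 2 and 3.

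Crabp1, which encodes a cytosolic retinoic acid binding protein (chromosome 8, 57926233 to 57934271), stood at 4.24, 4.32 and 4.32 in MBP samples, against 4.32, 4.40 and 4.32 in control samples. Only 3 distinct values occurred on the 6 arrays, and the interval of the difference was the narrowest of the members (-0.05, 95% interval -0.18 to 0.08). It was the only member whose mean was lower with MBP. Exact repeats of a value across arrays were found for 4 of the 10 members and 45.4% of all main probe sets, and for these the spread between samples may be understated.

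Crabp2 encodes the related carrier that delivers retinoic acid to nuclear receptors, and its probe set is placed on chromosome 2. It had log2 signals of 4.81, 3.50 and 3.81 in MBP samples, against 4.60, 3.83 and 3.61 in control samples. Sample 1 was the highest of its group in both, by about 1 log2 unit in MBP samples. The difference between groups was 0.03 (95% interval -0.99 to 1.05), the second widest interval of the members in the fit of the groups alone. With the sample number as a block the interval was -0.30 to 0.35.

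The enzymes that act on retinal were represented by Dhrs3, above background, and Aldh1a2, below it. Dhrs3, a reductase that turns retinal back into retinol and that retinoic acid is known to induce (chromosome 5, 166490225 to 166524733), had log2 signals of 7.43, 6.74 and 7.28 in MBP samples, against 7.11, 6.53 and 7.24 in control samples. Sample 2 was the lowest in both groups, and the MBP sample was higher in each of the 3 numbers, by 0.32, 0.21 and 0.04. The groups overlapped. The means were 7.15 ± 0.36 in MBP and 6.96 ± 0.38 in control samples (SD, n = 3 each), 1.14-fold apart, and the 95% interval of 0.740-fold to 1.76-fold includes no change. With the sample number as a block the interval was 1.01-fold to 1.30-fold, and the adjusted limma p was 0.865. The log2 difference with the block was 0.13, 0.18 and 0.26 without numbers 1, 2 and 3. Without control sample 2 alone, which leaves the low number 2 in the MBP group only, the unblocked difference was -0.02.

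Aldh1a2, a retinal dehydrogenase that makes retinoic acid (chromosome 8, 75363285 to 75442554), had log2 signals of 3.13, 3.20 and 3.46 in MBP samples, against 3.07, 3.28 and 3.15 in control samples. Sample 3 with MBP was the highest of the 6, and the other 5 lay close together. The difference was 0.10 (95% interval -0.17 to 0.36). The probe set shared by Aldh1a1, the related enzyme, and Aldh1a7 had 2.39, 2.58 and 2.52 in MBP samples, against 2.25, 2.57 and 2.37 in control samples, below background on all 6 arrays.

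Cyp26b1, which oxidises retinoic acid to inactive products and shields germ cells of the fetal mouse testis from it (chromosome 4, 180848038 to 180864857), had log2 signals of 4.84, 4.98 and 3.53 in MBP samples, against 4.21, 4.64 and 3.63 in control samples. Sample 3 was the lowest by far in both groups. The MBP sample was higher for numbers 1 and 2, by 0.62 and 0.34, and lower for number 3, by 0.10. The difference of 0.29 had the widest interval of the members in the fit of the groups alone (95% interval -0.84 to 1.41). With the sample number as a block the interval was -0.09 to 0.66 (limma adjusted p = 0.865). With the block the difference was 0.12, 0.26 and 0.48 without numbers 1, 2 and 3. In the fit of the groups alone, it was 0.75 without MBP sample 3 and 0.02 without control sample 3, each of which leaves the low number 3 in 1 group only. With number 3 kept in both groups but another number left in 1 group only, it was 0.09 and 0.02 without MBP samples 1 and 2. It was 0.31 and 0.53 without control samples 1 and 2.

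The receptors split by level. Rara, the retinoic acid receptor alpha (chromosome 10, 86663849 to 86681847), was above background at 7.33, 7.34 and 7.34 in MBP samples, against 7.10, 7.39 and 7.47 in control samples. The 3 MBP samples lay inside the range of the control samples. Its means were 7.34 ± 0.01 in MBP and 7.32 ± 0.20 in control samples (SD, n = 3 each). The ratio was 1.01-fold, and the 95% interval of 0.851-fold to 1.21-fold lay within 2-fold on both sides.

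Rarb, the retinoic acid receptor beta, was below background in all 3 of its probe sets, and each had a higher mean with MBP. The 3 are not independent, since they are annotated with the same RefSeq transcript. Probe set 10782469, annotated with a transcript at chromosome 15, 14166625 to 14306790, had log2 signals of 4.74, 4.82 and 4.49 in MBP samples, against 4.49, 4.33 and 4.33 in control samples. The lowest MBP value equalled the highest control value to the last deposited decimal, so the groups touched. The difference was 0.30 (95% interval 0.04 to 0.55, limma adjusted p = 1). The MBP sample was higher in each of the 3 numbers, by 0.25, 0.48 and 0.15. With the sample number as a block the interval was 0.09 to 0.50 (limma adjusted p = 0.865).

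Probe set 10786108, annotated with transcripts over 13963828 to 14306790, had 4.11, 4.02 and 3.84 in MBP samples, against 3.86, 3.80 and 3.68 in control samples. The array annotation places it on chr15_random, and the other Rarb probe sets on chr15. The groups overlapped by MBP sample 3 alone, which lay just below control sample 1, and the difference was 0.21 (95% interval -0.0034 to 0.43). Within numbers 1, 2 and 3 the MBP sample was higher by 0.25, 0.22 and 0.17. The interval with the block was 0.08 to 0.35 (limma adjusted p = 0.865). Probe set 10782467, annotated over the same span, had 3.95, 3.83 and 3.97 in MBP samples, against 3.66, 3.83 and 3.94 in control samples. Here the groups overlapped over most of their range, with a difference of 0.11 (95% interval -0.11 to 0.32). By number it was 0.29, 0.0 and 0.04, and the interval with the block was -0.09 to 0.31. Leaving out any 1 array, without the block, kept the difference above 0 in all 3 probe sets, between 0.04 and 0.39.

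**Figure D2:**
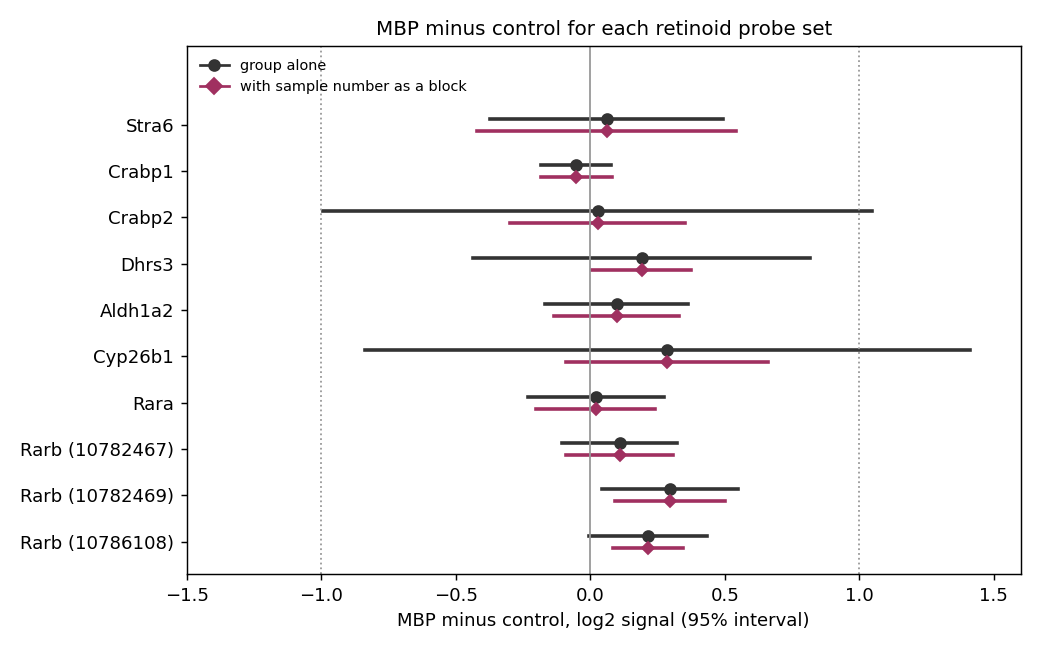
Difference in log2 signal, MBP minus control (horizontal axis), for each of the 10 retinoid probe sets, with 95% intervals from the fit of the groups alone (black) and with the sample number as a block (red). Dotted lines mark 2-fold in either direction. Points lie right of 0 for 9 of 10 probe sets, and the intervals of Crabp2, Dhrs3 and Cyp26b1 are narrower with the block.

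Taking the 10 probe sets as a list, 9 had a higher mean with MBP, at a median difference of 0.10, against 46.6% of all main probe sets and a median of -0.0065. Of the probe sets below background on all arrays, 52.4% had a higher mean with MBP. The count was 7 to 9 without single arrays, 6 to 9 without both arrays of a sample number and 8 with median centring or quantile normalization. The sample number paired MBP and control samples in these data, and with it as a block 3 of the 10 had an unadjusted limma p under 0.05 and a higher mean with MBP (Rarb probe sets 10782469 and 10786108, and Dhrs3), against 2.4% of all main probe sets. Without the block it was 1 of 10, against 0.808%. None of these passed the adjusted test, with or without the block (smallest adjusted p = 0.865 with it). The 3 Rarb probe sets are not independent, being annotated with the same transcript, so these counts hold fewer genes than probe sets. Rarb probe set 10782469 had 4 distinct values on the 6 arrays, so its spread may be understated.

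For 3 members the signal differed between sample numbers. In these 3 the gap between the highest and the lowest number was larger than the difference between MBP and control. That was so in every other member probe set too, except Rarb probe set 10782469 (0.20 against 0.30). A gap over 3 means and a difference of 2 means are unlike measures. The F test of the 3 numbers, each with 1 MBP and 1 control array, asks whether arrays of 1 number share a deviation, and it was adjusted over all main probe sets. Dhrs3 (limma adjusted p = 0.0271), Crabp2 (0.0328) and Cyp26b1 (0.0365) passed, which is 3 of 10 members against 9.62% of all main probe sets. Among probe sets below background on all 6 arrays 3.36% passed, and Crabp2 and Cyp26b1 are 2 of the 8 members there. Among those above background on all 6 arrays 24.1% passed, and Dhrs3 is 1 of the 2 members there.

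The 3 genes did not share a pattern. Crabp2 stood out in number 1, with a mean log2 signal of 4.70 against 3.66 and 3.71 in numbers 2 and 3. Cyp26b1 was lowest in number 3, at 3.58 against 4.53 and 4.81 in numbers 1 and 2. Dhrs3 was lowest in number 2, at 6.64 against 7.27 and 7.26 in numbers 1 and 3. For Dhrs3, the gap between the highest and the lowest number was 1.55-fold. Rara, with means of 7.21, 7.37 and 7.40, did not pass (adjusted p = 0.479), nor did Stra6, Crabp1, Aldh1a2 or any Rarb probe set (adjusted p from 0.162 to 0.908).

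These 3 calls did not hold without 1 array. Leaving out any single array left 1 residual degree of freedom in place of 2, and 0 of 27342 probe sets then passed in limma, with 4479 to 6112 at an unadjusted p under 0.05. The adjusted p was 0.138 to 0.259 for Crabp2, 0.148 to 0.243 for Cyp26b1 and 0.147 to 0.244 for Dhrs3. The gap between numbers changed less, at 0.90 to 1.31 log2 units for Crabp2, 0.94 to 1.52 for Cyp26b1 and 0.61 to 0.73 for Dhrs3.

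Markers of other cells moved with the sample number too, and in bulk samples fewer cells of a type and less RNA per cell cannot be told apart. Of 12 measured myoid and fibroblast markers, 9 passed the same test, and their summed signal had log2 means of 13.36, 13.32 and 13.95 in numbers 1, 2 and 3, highest in number 3, where Cyp26b1 was lowest. Over all main probe sets above background on every array, as 11 of the 12 were, the share was 24.1%. Those highest in number 3 were the contractile genes Myh11 (7.18, 6.85 and 9.13), Tagln, Actg2, Cnn1 and Des and the collagen gene Col1a1. The matrix genes Dcn (11.10, 11.26 and 10.56) and Lum (6.65, 5.95 and 5.52) were lowest there, and Thy1 was highest in number 1. The range of that sum was 13.26 to 13.94 in MBP and 13.35 to 13.96 in control samples. Of 13 Sertoli markers, 3 passed (Sox9, Clu and Kitlg), or 23.1%, against 9.62% of all main probe sets and 24.1% of those above background throughout. Kitlg lay below background on all arrays. The Sertoli sums were 11.40, 11.55 and 11.49, and the probe set listed under Fshr leads them. Without Fshr the sums were 10.02, 10.43 and 10.48, with a range of 10.00 to 10.48 in MBP and 10.04 to 10.48 in control samples. The summed signal of the 5 Leydig cell markers was 11.07, 10.85 and 11.19, lowest in number 2 as Dhrs3 was, with a range of 10.83 to 11.19 in MBP and 10.87 to 11.19 in control samples. That sum was nearly all Star (11.04, 10.82 and 11.17), the other 4 lay below background on all arrays, and 0 of 5 passed. Background itself was highest on the arrays of number 3. The part of these in the differences of the 3 retinoid genes was not tested.

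**Figure D3:**
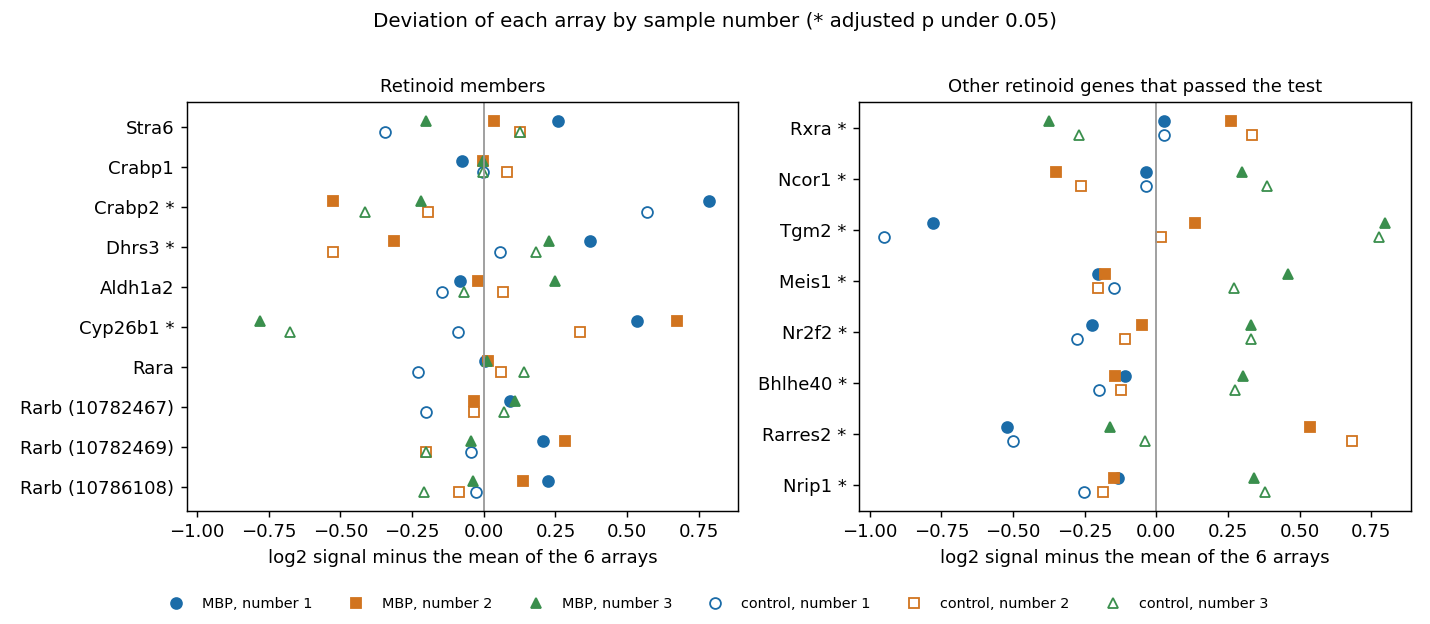
Log2 signal minus the mean of the 6 arrays (horizontal axis), for the 10 retinoid probe sets (left) and for the 8 other retinoid genes that passed the test of sample number (right). Filled symbols are MBP and open symbols control arrays, and stars mark an adjusted p under 0.05. In Crabp2, Dhrs3 and Cyp26b1 the filled and open symbols of the outlying number lie together, as they do for Tgm2, Rarres2 and the other genes on the right.

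The wider pathway was described through 6 lists with 66 genes, of which 56 had a probe set of their own and 16 were above background on all 6 arrays. By the test of MBP against control 0 of the 56 passed in limma, and 0 had an unadjusted p under 0.05. Of these genes 28 had a higher mean with MBP, or 50% against 46.6% of all main probe sets, at a median difference of 0.00037. By the test of sample number 8 of the 56 passed, or 14.3% against 9.62% of all main probe sets. That share depends on the level. It was 24.1% of main probe sets above background on all 6 arrays, as 16 of the 56 were. It was 3.36% of those below background on all 6, as 33 of the 56 were.

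Retinol uptake, transport and storage had 11 measured genes, 3 of them above background. Dgat1, which can esterify retinol, stood at 6.63 in MBP and 6.64 in control samples, and Scarb1, a scavenger receptor for carotenoids, at 6.25 and 6.29. The genes of smallest p were Ttr, the plasma carrier transthyretin, at 6.06 in MBP and 5.92 in control samples, and the carotenoid cleaving enzyme Bco2, at 3.12 and 3.31.

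Retinol and retinal oxidation and reduction had 13 measured genes, of which Rdh11, a retinal reductase, was above background on all arrays, at 6.81 in MBP and 6.87 in control samples. Adh1, an alcohol dehydrogenase that can oxidise retinol, had 2.96, 2.88 and 2.85 in MBP samples, against 3.01, 3.19 and 3.02 in control samples. Its groups did not overlap, which 1.52% of all main probe sets also showed in that direction, but it did not pass and lay below background throughout. Rdh13 stood at 4.30 in MBP and 4.22 in control samples, below background on all arrays. Its value was exactly the same in all 3 MBP samples and control sample 2, so its spread may be understated. Of the clearance enzymes related to Cyp26b1, Cyp26a1 had 3.41 in MBP and 3.49 in control samples and Cyp26c1 4.06 and 3.95, all below background.

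Among the other receptors and carriers, 5 genes were measured. Ppard, a nuclear receptor that retinoic acid can also reach, was the 1 above background on all arrays, at 6.74 in MBP and 6.69 in control samples. Rarg, the gamma receptor, was above background on 5 arrays, at 6.40 in MBP and 6.34 in control samples, and the RXR partner gene Rxrg stood at 3.00 and 2.95. Rxra, the main partner of the RARs, passed the test of sample number (limma adjusted p = 0.02), with means of 5.54, 5.81 and 5.20 in numbers 1, 2 and 3. It was above background on 1 array only.

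Of 8 coregulators, which hold RAR target genes silent or activate them, 6 were above background on all arrays, and 1 had a higher mean with MBP. A higher mean with MBP was found for 46.6% of all main probe sets and 31.4% of those above background on all 6 arrays. The coregulators of smallest p were the acetyltransferases Crebbp, at 7.88 in MBP and 8.0 in control samples, and Ep300, at 7.47 and 7.55. Ncor1, a corepressor of unliganded receptors, passed the test of sample number (limma adjusted p = 0.0177), with means of 7.14, 6.88 and 7.52. When only probe sets above background on all 6 arrays were tested, 5 of the 6 coregulators among them passed it. So did 4052 of all 6341 probe sets tested in that setting.

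Retinoic acid target genes had 17 measured members, 13 of them with a higher mean with MBP at a median difference of 0.04, and 5 above background on all arrays. A higher mean with MBP was found for 46.6% of all main probe sets. It was found for 52.4% of those below background on all arrays, as 11 of the 17 were. The target genes of smallest p were the cohesin gene Rec8, at 2.98 in MBP and 2.87 in control samples, and the homeobox gene Meis2, at 4.27 and 4.43, all below background. The list held 6 of the 8 genes that passed the test of sample number, or 6 of 17, against 9.62% of all main probe sets and 24.1% of those above background on all 6 arrays. Tgm2, a transglutaminase, had log2 signals of 8.20, 9.11 and 9.78 in MBP samples, against 8.03, 8.99 and 9.75 in control samples, with number 1 lowest and number 3 highest in both groups. That was a 3.14-fold gap between numbers (limma adjusted p = 0.00449), beside a difference between MBP and control of 0.10.

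Rarres2, which encodes the adipokine chemerin, was highest in number 2, with means of 5.62, 6.75 and 6.03 (adjusted p = 0.00776). Meis1, Nr2f2, Bhlhe40 and Nrip1 also passed, each highest in number 3. With Tgm2, 5 of the 6 target genes that passed were highest there. How many of all passing probe sets were highest in number 3 was not counted. A relation to Cyp26b1, lowest in number 3, was not tested. Nrip1 lay below background on all 6 arrays, and Rarres2 was above it on 2 arrays only. Leaving out any 1 array left 0 of the 56 genes passing.

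Genes most like the 2 members above background were sought over the 6 arrays among 1481 named probe sets above background with an SD of at least 0.2. Dhrs3 was followed most closely by Styx, a pseudophosphatase gene (Pearson r = 0.971), and 37 of the 1481 had an r of at least 0.9. Rara was followed most closely by the transcription factor Mef2c (r = 0.90). These likenesses describe 6 arrays that share sample numbers, and they carry no test.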

How the data were processed

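RNA of 6 samples was read on Affymetrix RaGene 1.0 arrays, per the file headers. The deposited value table holds log2 signals, 1 per probe set and array, normalized by the authors across arrays. MAS5 stands in the submitters' processing notes without a role, and the headers of the authors' annotated table call its own signals RMA. The method behind the deposited values is thus not given in the sources used here. The annotated table has 6 signal columns with no matching sample label, which were not used. Only its annotation text (category, symbols, Ensembl positions on Rnor_5.0) was read. Of 29214 probe sets, 27342 main ones were tested. Symbols of 2318 of these were updated through synonyms of a RefSeq table (GRCr8), which was used for names and promoters.

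MBP minus control was fitted with limma 3.58.1 in R 4.3.3 (lmFit, eBayes, Benjamini-Hochberg, threshold 0.05), without the sample number. The moderated F test of sample number used a fit of group and number. Both were tried on simulated data. The simulated data for the group test held no spread between sample numbers, so they do not show what that test can find here. A gene was represented in the lists by its brightest probe set. Deviations of same-numbered MBP and control samples from their group means correlated at 0.567, 0.603 and 0.779, against -0.535 to 0.0481 for different numbers. The numbers therefore pair the samples, on the basis of the data. Named pathway genes are the 2 of smallest p per list, the detected 1 of largest range between numbers and, beyond that rule and chosen after their values were seen, others that passed the number test or were above background. Some genes that this rule takes are not reported here. The members and lists were chosen with earlier results of these data known. Precision is limited by the number of arrays, which carry no depth of reads. Alternatives are given in the closing section.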

Additional observations from a re-analysis of the deposited data

How the results depend on the processing

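No alternative gave a call of MBP against control: the count was 0 in each of 14, with 2 to 1255 probe sets at an unadjusted limma p under 0.05. The replicate block, which pairs samples by number, gave 0 calls, 1255 at an unadjusted p under 0.05, and changed no call of a member. The sign of some differences turned. With the replicate block and without both arrays of number 1, the log2 difference was -0.0861 for Rara, -0.0671 for Crabp2 and -0.21 for Stra6, and without number 3 it was -0.0572 for Crabp2 and -0.0108 for Aldh1a2. Median centring gave -0.0046 for Rara and quantile normalization -0.00081 for Crabp2. Without single arrays the differences ranged from -0.0896 to 0.10 (Rara), -0.36 to 0.32 (Crabp2), -0.10 to 0.18 (Stra6), -0.0012 to 0.17 (Aldh1a2) and -0.0241 to 0.39 (Dhrs3).

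For sample number, 2630 probe sets passed. The count was 3614 with median centring and with quantile normalization, 4052 when only probe sets above background on all arrays were tested and 4238 with trend and robust settings. It was 0 without any single array, where 1 residual degree of freedom remains. The gap between numbers then ranged from 0.90 to 1.31 for Crabp2, 0.94 to 1.52 for Cyp26b1 and 0.61 to 0.73 for Dhrs3, none passing. Low signal limits 8 of the 10 retinoid probe sets.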
